A study of Mus musculus with 6 samples.

Results

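The genes described here are 10 transcription factor genes that act while a neural progenitor commits to becoming a neuron: Neurog1, Neurog2, Neurod1, Neurod4, Insm1, Nhlh1, Nhlh2, Ebf2, Ebf3 and Myt1. They were taken as a fixed list of symbols, each matched to 1 Ensembl identifier, and are 10 of the 55400 genes in the table. They were followed through 6 libraries of polyadenylated RNA from motor neuron progenitors made from C57BL/6 mouse embryonic stem cells, 3 labelled control and 3 labelled Setd5sh. The cells of both groups carry the genotype label WT. Per the labels, the stem cells were kept on mouse embryonic fibroblast feeders, embryoid bodies were started from 500 cells each, and retinoic acid at 1 µM and the Sonic hedgehog agonist SAG at 0.5 µM were given from day 2. Doxycycline at 1 µg/mL for 36 h and harvest on day 4 are described identically for control and Setd5sh. The name Setd5sh has the form of a short hairpin RNA against Setd5, a SET domain protein; the sources used here do not state whether control cells carried another hairpin or whether either group is 1 clone.

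As background, Neurog1 and Neurog2 are basic helix-loop-helix (bHLH) factors that start neurogenesis. They pair with E proteins, bind the DNA motif called an E-box (CANNTG), and switch on both the Notch ligands that hold back neighbouring cells and a later set of factors that carry the cell out of the progenitor state. Neurod1, Neurod4, Nhlh1 and Nhlh2 are bHLH factors of that later set, Ebf2 and Ebf3 are helix-loop-helix factors of the EBF family, and Insm1 and Myt1 are zinc finger factors. In motor neuron progenitors Olig2 raises Neurog2, and Id and Hes proteins oppose the proneural factors.

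For orientation in the promoters, RefSeq sequences on the GRCm38.p6 build were found for 8 of the 10 genes, as 11 windows because Neurod4 and Myt1 have more than 1 start. The 250 bases before each start were searched on both strands for CANNTG and for CAGATG, the form of the E-box known from neurogenin and NeuroD binding, which is contained in the first motif. CAGATG was found in 2 of the 11 windows, those of Nhlh1 and Nhlh2, and in 14.4% of all 32851 windows of that length. Any CANNTG was in 5 of the 11 windows, those of Nhlh1, Nhlh2 and Neurod1 and 2 of Myt1, and in 66.2% of all windows; the 6 windows without it include those of Neurog1 and Neurog2. The 4 windows below were picked after the values were seen, as 2 pairs of related genes that differ in their pattern across libraries. Any link between sequence and pattern was not tested. They are written 5′ to 3′ in the direction of the gene, with each CANNTG match in capitals.
Nhlh1, chr1:172057597-172057846, minus strand: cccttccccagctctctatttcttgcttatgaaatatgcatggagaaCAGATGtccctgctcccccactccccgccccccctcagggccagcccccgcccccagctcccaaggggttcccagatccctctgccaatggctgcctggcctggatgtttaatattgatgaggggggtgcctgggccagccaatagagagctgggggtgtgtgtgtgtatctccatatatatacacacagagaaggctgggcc
Nhlh2, chr3:102009895-102010144, plus strand: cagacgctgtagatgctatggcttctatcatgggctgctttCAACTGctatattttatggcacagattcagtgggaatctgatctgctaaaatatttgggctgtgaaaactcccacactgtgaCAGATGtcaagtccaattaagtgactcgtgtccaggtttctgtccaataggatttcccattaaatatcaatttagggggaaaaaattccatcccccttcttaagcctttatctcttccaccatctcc
Neurog1, chr13:56252181-56252430, minus strand: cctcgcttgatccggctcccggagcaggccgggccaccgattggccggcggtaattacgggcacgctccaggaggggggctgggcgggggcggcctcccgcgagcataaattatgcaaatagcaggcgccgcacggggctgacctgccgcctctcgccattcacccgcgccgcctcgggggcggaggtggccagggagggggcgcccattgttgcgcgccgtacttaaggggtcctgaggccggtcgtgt
Neurog2, chr3:127632886-127633135, plus strand: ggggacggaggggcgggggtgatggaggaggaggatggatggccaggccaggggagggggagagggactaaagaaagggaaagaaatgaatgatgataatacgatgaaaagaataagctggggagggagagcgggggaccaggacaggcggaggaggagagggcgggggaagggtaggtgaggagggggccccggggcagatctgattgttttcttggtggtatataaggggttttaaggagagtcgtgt
The CAGATG match begins 203 bases before the start of Nhlh1 and 127 bases before that of Nhlh2. The Neurog1 window holds 29 CG dinucleotides and the Neurog2 window 8, against 2 in each of the Nhlh1 and Nhlh2 windows and a median of 6 over all windows. The windows not shown belong to genes with the library pattern of Nhlh1 and Nhlh2, and none of them holds CAGATG. Their CG numbers are 43 for Ebf3, 22 for Neurod1, 2 and 7 for Neurod4, and 2, 0 and 1 for Myt1. The CG numbers of the 2 patterns thus overlap. A match is a description of the letters, and a window without one says nothing about the factor.

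Total counts per library ran from 19639303 to 32046466, and the 10 genes drew between 88 and 1579 reads each per library. Setd5 was lower in each Setd5sh library (12.9 to 14.4 FPKM) than in each control library (16.7 to 22.2 FPKM), as were 2.14% of all tested genes. Its log2 fold change in edgeR's quasi-likelihood test was -0.51 (SE 0.16), at a Benjamini-Hochberg adjusted p of 0.995. With control 1 left out the log2 fold change was -0.36. FPKM is the authors' count per kilobase of exonic length, scaled to the library's total count, so levels can be compared between genes. The comparison is looser for genes with several transcripts, because 1 exonic length is used per gene. Ebf2, Ebf3, Myt1 and Nhlh2 have 4, 8, 12 and 3 annotated transcripts, and the others of the 10 have 1 each. Markers of the labelled cell type were present: Olig2 stood at 65.6 to 115.8 FPKM, Nkx6-1 at 42.4 to 76.5, Nkx6-2 at 37.2 to 57.8, Sox2 at 67.3 to 83.8, Sox1 at 20.7 to 28.0, Olig1 at 11.9 to 24.2 and Pax6 at 5.87 to 7.97 FPKM over the 6 libraries. Markers of dorsal interneurons were under 1 FPKM in every library (6 of 6), as were 4 of 6 markers of V2 and other ventral interneurons and 4 of 5 of neural crest and sensory cells. Of 6 markers of mesoderm and endoderm, 2 were under 1 FPKM throughout, whereas Foxa2, which also marks the floor plate, stood at 21.05 to 35.23 FPKM and Meox1 at 2.95 to 8.26 FPKM, with Meox1 highest in the libraries numbered 2. The control and Setd5sh libraries numbered 2 stand apart from the others in pluripotency markers, whose values are given with the results they touch. In bulk RNA, fewer cells that express a gene and less RNA per cell cannot be told apart.

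The 10 genes fell into 2 patterns. Neurog1, Neurog2 and Insm1 varied by 1.11 to 1.29 times among the control libraries, less than the median of 1.51 over all tested genes, and were higher in each Setd5sh library than in any control library. The other 7 varied by 1.73 to 2.80 times among the control libraries themselves, and their groups overlapped. This division was made after the values were seen and is given as a description. No gene passed the adjusted threshold: edgeR's quasi-likelihood test with Benjamini-Hochberg adjustment called 0% of the 12199 genes tested (smallest adjusted p = 0.995, with 149 genes at an unadjusted p under 0.05). With DESeq2 the count was also 0.

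**Figure D1:**
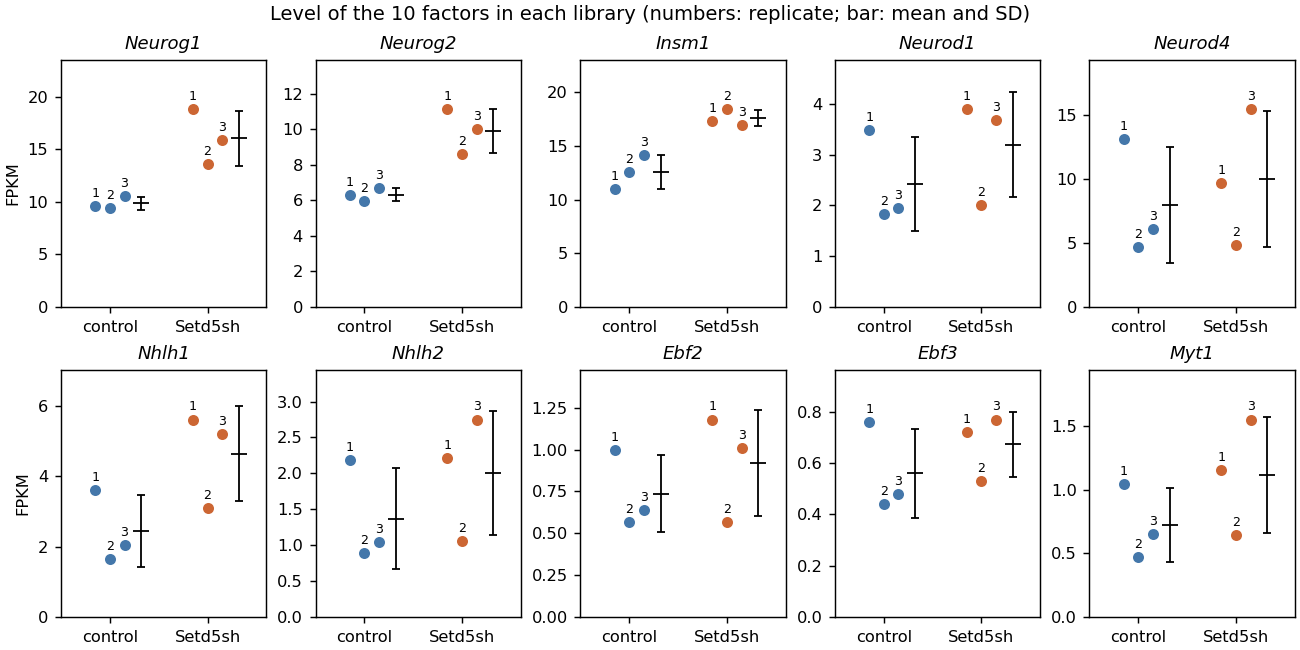
Level of each of the 10 factors in FPKM (vertical axis, from 0, scaled per gene) in control (blue) and Setd5sh (orange) libraries; numbers are replicate numbers and the black bars are the mean and SD of 3 libraries. Neurog1, Neurog2 and Insm1 do not overlap between groups, whereas control 1 lies near Setd5sh 1 and 3, and Setd5sh 2 near control 2 and 3, for most of the others.

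Insm1 was the most abundant of the 10 in control, at a mean of 12.5 FPKM, followed by Neurog1 at 9.83, Neurod4 at 7.97 and Neurog2 at 6.32 FPKM. Nhlh1 and Neurod1 stood at 2.45 and 2.42 FPKM, Nhlh2 at 1.37, and Ebf2, Myt1 and Ebf3 at 0.737, 0.72 and 0.56 FPKM. Insm1 lay above Neurog1 in range, and Neurog2 above Nhlh1; all other neighbours in this order overlapped in their control ranges. The initiating factors and Insm1 were thus higher in FPKM than most of the later factors, with Neurod4 as the exception. Ebf2, Ebf3 and Myt1 did not reach the minimum of a mean of 1 FPKM over the 6 libraries. The remaining 7 genes did, and each had a control mean above that minimum.

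Neurog1 (ENSMUSG00000048904; mm10 chr13:56250478-56252163, minus strand, a gene of 1 exon) stood at 9.55, 9.44 and 10.5 FPKM in the control libraries numbered 1, 2 and 3 and at 18.8, 13.6 and 15.8 FPKM in the Setd5sh libraries of the same numbers. The groups did not overlap, and the lowest Setd5sh library was replicate 2. The means were 9.83 ± 0.589 and 16.1 ± 2.62 FPKM (SD, n = 3 each), a ratio of 1.63. In edgeR this gave a log2 fold change of 0.70 (SE 0.19), an unadjusted p of 0.0067 and an adjusted p of 0.995.

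Neurog2 (ENSMUSG00000027967; mm10 chr3:127633135-127635631, plus strand), the neurogenin most tied to motor neuron formation, had 6.32, 5.95 and 6.69 FPKM in the control libraries and 11.1, 8.59 and 9.99 FPKM in the Setd5sh libraries. Its order over the Setd5sh libraries was that of Neurog1, with replicate 1 highest and replicate 2 lowest, again without overlap with control. The means were 6.32 ± 0.37 and 9.90 ± 1.26 FPKM (SD, n = 3 each). In log2 terms the edgeR difference was 0.64 (SE 0.19), at an unadjusted p of 0.00978 and an adjusted p of 0.995.

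Insm1 (ENSMUSG00000068154; mm10 chr2:146221921-146225020, plus strand, 1 exon), a zinc finger repressor that promotes the step from dividing progenitor to neuron, had 11.0, 12.5 and 14.1 FPKM in control and 17.3, 18.4 and 17.0 FPKM in Setd5sh. The 3 Setd5sh libraries lay close together, and replicate 2, the lowest for the neurogenins, was here the highest. The means were 12.5 ± 1.58 and 17.6 ± 0.744 FPKM (SD, n = 3 each). The edgeR log2 fold change of Insm1 was 0.48 (SE 0.15), at an unadjusted p of 0.0124 and an adjusted p of 0.995.

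Permuting the 6 libraries (exact, two-sided, on FPKM) gave p = 0.1 for each of these 3 genes, the smallest value that 3 against 3 allows. Groups that do not overlap always give this value, so it adds nothing to the lack of overlap. Of all tested genes, 3.07% had Setd5sh libraries entirely above the control libraries and 2.14% entirely below. For the same reason each of the 3 was necessarily higher in Setd5sh within all 3 pairs of the same replicate number, as were 12.8% of all tested genes. Within pairs 1, 2 and 3, Setd5sh stood at 1.97, 1.44 and 1.51 times control for Neurog1, at 1.76, 1.44 and 1.49 times for Neurog2, and at 1.58, 1.47 and 1.20 times for Insm1. Over the 21 analysis settings the log2 fold change ran from 0.56 to 0.85 for Neurog1, from 0.53 to 0.77 for Neurog2 and from 0.39 to 0.57 for Insm1, with adjusted p from 0.351 to 1.00, 0.475 to 1.00 and 0.566 to 1.00.

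Nhlh1 (ENSMUSG00000051251; mm10 chr1:172052292-172057573, minus strand), a bHLH factor found in newly formed neurons, had 3.62, 1.66 and 2.06 FPKM in control and 5.62, 3.11 and 5.21 FPKM in Setd5sh. Only control 1 and Setd5sh 2 overlapped. Its log2 fold change of 0.90 (SE 0.39) was the highest of the 7 tested, with an edgeR unadjusted p of 0.0486, and Setd5sh was higher in all 3 pairs. The exact two-sided permutation test gave p = 0.2. With control 1 left out, the log2 fold change was 1.35 (SE 0.33), and with Setd5sh 2 left out 1.16. With any 1 of the other 4 libraries left out it was 0.66 to 0.81, at an edgeR unadjusted p of 0.12 to 0.152.

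Nhlh2 (ENSMUSG00000048540; mm10 chr3:102010076-102015492, plus strand), its close relative, had 2.18, 0.89 and 1.04 FPKM in control and 2.21, 1.06 and 2.75 FPKM in Setd5sh. Control 1 stood level with Setd5sh 1, and Setd5sh 2 with control 3. The log2 fold change was 0.52 (SE 0.47) and the exact two-sided permutation p was 0.2. Leaving out control 1 gave 1.08 and leaving out Setd5sh 2 gave 0.87, whereas leaving out control 2 gave 0.27 and leaving out Setd5sh 3 gave 0.23.

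Neurod4 (ENSMUSG00000048015; mm10 chr10:130268152-130280240, minus strand), a bHLH factor downstream of the neurogenins, was the most variable of the 10, at 13.1, 4.69 and 6.09 FPKM in control and 9.65, 4.83 and 15.4 FPKM in Setd5sh. Control 1 exceeded Setd5sh 1, so that Setd5sh stood at 0.735, 1.03 and 2.53 times control in pairs 1, 2 and 3. Over all 6 libraries the log2 fold change was 0.29 (SE 0.51), and the exact two-sided permutation p was 0.6. Leaving out control 1 gave 0.91 and leaving out Setd5sh 2 gave 0.67, whereas the value was 0.13, 0.00 and -0.16 when control 3, control 2 or Setd5sh 3 was left out. A fit added after seeing the data, which corrects for GC content and exonic length and has the replicate block, gave 0.65 (SE 0.16).

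Neurod1 (ENSMUSG00000034701; mm10 chr2:79452521-79456751, minus strand), which drives neuronal differentiation, had 3.49, 1.82 and 1.94 FPKM in control and 3.89, 2.00 and 3.69 FPKM in Setd5sh. Control 1 lay beside Setd5sh 1 and 3, and Setd5sh 2 beside control 2 and 3. The log2 fold change was 0.38 (SE 0.38) and the exact two-sided permutation p was 0.2. Leaving out control 1 gave 0.79 and leaving out Setd5sh 2 gave 0.67, whereas the value was 0.24, 0.20 and 0.19 when control 3, Setd5sh 1 or control 2 was left out. Neurod1 shares 201 exonic bases with Cerkl on its own strand and 154 with a noncoding gene on the other strand, so some of its reads may be uncertain; the sources used here do not state whether counting used strand.

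The 3 scarcest genes were read from the fit without a filter, which tested 29462 genes and called 73 of them, or 0.248%. Its SEs cannot be compared with those of the main fit: Neurod4 had 0.24 there against 0.51, and Neurog1 0.26 against 0.19. Its log2 fold changes were also higher, at 0.39 against 0.29 for Neurod4 and 0.77 against 0.70 for Neurog1. Ebf2 (ENSMUSG00000022053; mm10 chr14:67233292-67430918, plus strand) had 1.00, 0.57 and 0.64 FPKM in control and 1.18, 0.57 and 1.01 FPKM in Setd5sh. Ebf3 (ENSMUSG00000010476; mm10 chr7:137193673-137314445, minus strand) had 0.76, 0.44 and 0.48 FPKM in control and 0.72, 0.53 and 0.77 FPKM in Setd5sh. The groups overlapped for both of these EBF factors, which act in migrating and maturing neurons, and each shares exonic bases with an antisense gene (424 and 355). Their log2 fold changes were 0.39 (SE 0.35) and 0.33 (SE 0.35). Myt1 (ENSMUSG00000010505; mm10 chr2:181763332-181827797, plus strand), a zinc finger factor that favours neuronal over progenitor fate, had 1.04, 0.47 and 0.65 FPKM in control and 1.15, 0.64 and 1.55 FPKM in Setd5sh. It was higher in Setd5sh in all 3 pairs with a log2 fold change of 0.70 (SE 0.34) and an edgeR adjusted p of 0.888, the same adjusted p as for Ebf2 and Ebf3.

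The list was chosen with earlier results of these data known, and its later factors share an order of libraries, given below. Counts over its genes are therefore a description, not independent evidence. As a list, 7 of 7 tested genes had a log2 fold change above 0, against 42.6% of all tested genes, with a median of 0.52 against -0.04. An unadjusted p under 0.05 was reached by 4 of the 7 (Neurog1, Neurog2, Insm1 and Nhlh1), all higher in Setd5sh, against 0.615% of all tested genes in that direction and 0.607% in the other. With control 1 left out that number was 7 and the list median 0.79, against 1.86% of all genes in that fit; with control 2 left out the number was 2, against 0.23%. In the fit corrected for GC content and exonic length with the replicate block it was 6, against 2.87%. None of the 7 passed adjusted over all genes. In a fit with the replicate block that left out the libraries numbered 1, added after seeing the data and with 1 residual degree of freedom, Nhlh1 passed with a log2 fold change of 1.13 (SE 0.27) and an edgeR adjusted p of 0.0109, as did 0.574% of all genes in that fit (70 genes); Nhlh1 did not pass in the other 20 settings, where its adjusted p was 0.271 to 1.00.

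**Figure D2:**
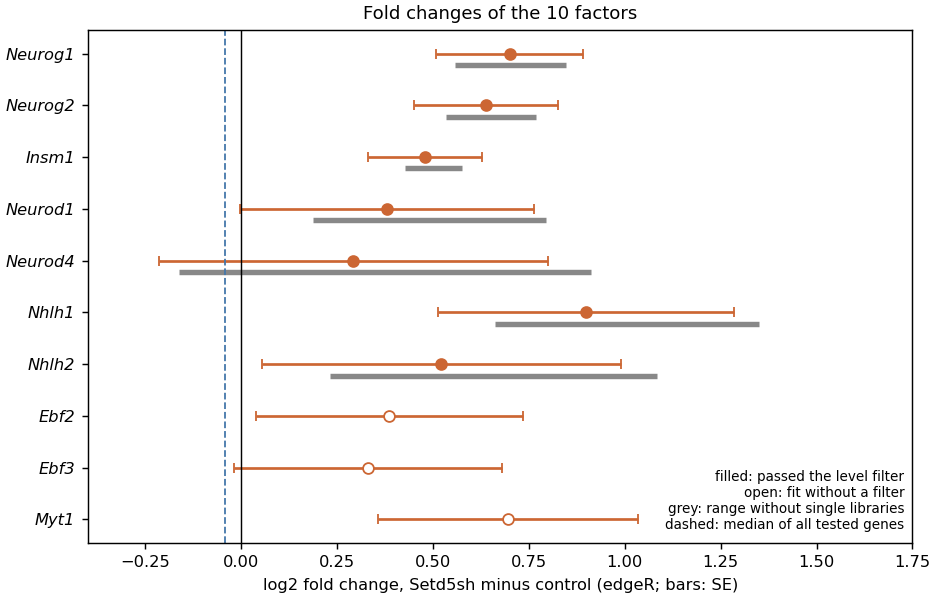
Log2 fold change, Setd5sh minus control, from edgeR with its SE (orange) for each factor; filled points passed the level filter and open points come from the fit without one, grey bars span the fits without single libraries, and the dashed line is the median of all tested genes. Neurog1, Neurog2 and Insm1 keep narrow grey bars above 0, whereas that of Neurod4 runs from -0.16 to 0.91. The SEs of filled and open points come from different fits and cannot be compared.

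The later factors followed the same order of libraries. In all 7 genes other than Neurog1, Neurog2 and Insm1, control 1 was the highest control library, control 2 the lowest, and Setd5sh 2 the lowest Setd5sh library. This order held for 6.48% of all tested genes and was noticed after the values were seen. The mean log2 level of the 7, relative to the control mean, was 0.65, -0.46 and -0.18 in the 3 control libraries in order of number and 0.70, -0.18 and 0.83 in the 3 Setd5sh libraries. For Neurog1, Neurog2 and Insm1 the same measure was -0.02, -0.10 and 0.12 in control and 0.74, 0.45 and 0.57 in Setd5sh. The ratio of Neurod4 to Neurog2 in FPKM was 2.08 in control 1 and 1.54 in Setd5sh 3, against 0.788 and 0.562 in control 2 and Setd5sh 2. Of the 10 genes' summed FPKM, Neurog1, Neurog2 and Insm1 made up 51.5% in control 1 and 58.5% in Setd5sh 3, but 72.6% and 76.1% in control 2 and Setd5sh 2.

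Markers of pluripotent cells ran against the later factors. Pou5f1, which keeps stem cells pluripotent, stood at 8.31 and 5.23 FPKM in control 2 and Setd5sh 2, at 1.49 and 1.93 in control 1 and 3, and at 0.86 and 0.27 in Setd5sh 1 and 3. The summed level of the 5 pluripotency markers was 18.4 to 81.9 FPKM in control and 8.76 to 61.3 FPKM in Setd5sh, with both upper values in the libraries numbered 2, and none of the 5 was at 0 throughout. Of these 5, 3 were tested and all 3 had a log2 fold change below 0, as did 7002 of the 12199 tested genes. The 6 fibroblast markers, which feeder cells would carry, summed to 5.12 to 8.28 FPKM in control and 7.02 to 9.02 in Setd5sh, with 4 of the 6 under 1 FPKM in every library. Of these, Postn, Lum and Thy1 were at or below 0.2 FPKM throughout. Col1a2 made up most of the sum, at 3.35 to 7.83 FPKM and higher in Setd5sh in all 3 pairs, with a log2 fold change of 0.35 (SE 0.29), and Col1a1 stood at 0.61 to 2.76 FPKM. The share of counts from mitochondrial genes was 2.18% in control 1 and 0.718% to 1.41% in the other libraries. The part of these differences in the results for the 10 factors was not tested. The median of the 7 tested factors was 0.77 with Setd5sh 2 left out and 0.45 with control 2 left out.

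**Figure D3:**
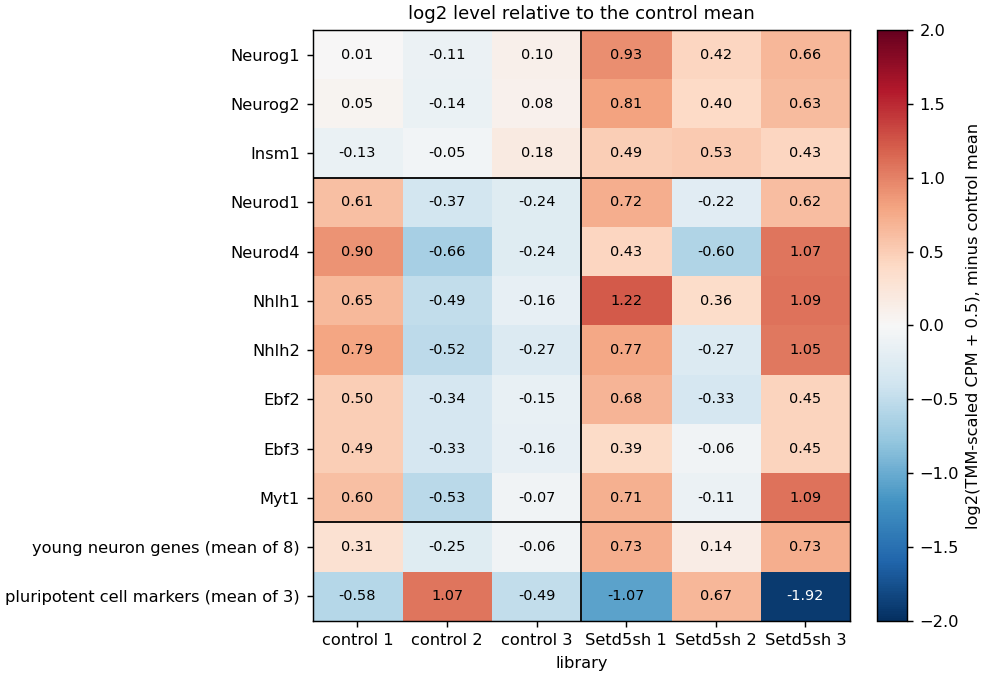
Log2 level of each factor in each library, as log2(TMM-scaled CPM + 0.5) minus the mean of the 3 control libraries (colour and printed value); the lower 2 rows are means over tested young neuron genes and pluripotency markers. The upper 3 genes are above 0 in all Setd5sh libraries, the next 7 are below 0 in control 2, control 3 and, for 6 of them, Setd5sh 2, and the pluripotency row is high in the libraries numbered 2.

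The E proteins that pair with proneural factors were measured by 3 tested genes, with a median log2 fold change of -0.14 that became 0.16 with control 1 left out and 0.02 with Setd5sh 2 left out. Tcf3 was abundant, at 69.8 to 96.6 FPKM over the 6 libraries and a log2 fold change of 0.18 (SE 0.14). Tcf4 was at 1.40 to 3.43 FPKM and a log2 fold change of -0.36 (SE 0.34). The Id proteins, which sequester E proteins, had 3 of 4 members tested and a median of 0.21, which was -0.03 with control 1 left out. The log2 fold change of Id3 was 0.36 (SE 0.26) and that of Id1 was 0.21 (SE 0.26). None of these genes reached an unadjusted p under 0.05.

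The Hes and Hey repressors, through which Notch restrains proneural genes, had 3 of 6 members tested and a median of 0.37, which was 0.19 with Setd5sh 1 left out, 0.22 with control 2 left out and 0.08 over all 6 members in limma with no filter. Hes5 stood at 20.3, 16.4 and 21.04 FPKM in control and 37.8, 22.4 and 23.8 FPKM in Setd5sh. The groups did not overlap, as for 3.07% of all tested genes in that direction. The log2 fold change of Hes5 was 0.53 (SE 0.25). Hey1 had one of 0.37 (SE 0.23). Of 10 other proneural and neuronal bHLH genes, 8 were under 1 FPKM in every library and 2 of those, Neurod2 and Neurod6, were at 0 reads in all 6. Atoh8, another bHLH gene of this list, was tested and had a log2 fold change of 0.24 (SE 0.25). Of 5 family relatives of the listed genes, only Ebf4 was tested, at -0.37 (SE 0.28), which was -0.18 with Setd5sh 1 left out, -0.22 with control 1 left out and -0.66 with Setd5sh 2 left out.

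Among 11 known targets of proneural factors, 10 were tested, 9 of them above 0, against 42.6% of all tested genes. Their median log2 fold change was 0.24. Dll3, a Notch ligand that acts within the cell, was the only one with an unadjusted p under 0.05 in edgeR. In the same direction 0.615% of all tested genes reached this. Dll3 stood at 5.66, 5.53 and 8.62 FPKM in control and 12.0, 8.61 and 11.2 FPKM in Setd5sh. Setd5sh 2 and control 3 stood level, and the log2 fold change was 0.68 (SE 0.24, edgeR adjusted p = 0.995). Young neuron genes had 8 of 11 members tested, all 8 above 0, against 42.6% of all tested genes. They ran from 0.005 to 1.15, with a median of 0.48 that was 0.84 with control 1 left out. Tubb3, the neuronal beta-tubulin, stood at 19.0, 17.3 and 26.1 FPKM in control and 53.5, 30.5 and 55.0 FPKM in Setd5sh, and the filament gene Ina and the adhesion gene Cntn2 likewise did not overlap. Of the 8 tested, 4 lay entirely higher in Setd5sh, as did 3.07% of all tested genes. Tubb3, Ina and Cntn2 were known to be higher in these Setd5sh libraries when the list was drawn up, so their direction is no independent evidence.

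Other commitment factors had a median of 0.05 over 5 of 8 members, which became -0.12 with control 3 left out and -0.01 with control 2 or Setd5sh 3 left out. In the other direction it was 0.28 with control 1 left out, 0.15 with Setd5sh 2 left out and 0.22 over all 8 members with no filter. Srrm4, a neuronal splicing regulator, differed by 0.50 (SE 0.28) on the log2 scale, and Sox11, which promotes neuronal gene expression, by -0.17 (SE 0.20). REST and its cofactors, which silence neuronal genes outside neurons, had a median of -0.10 over 4 members, which was -0.03 with control 1 left out and -0.17 with control 3 left out. Rest itself stood at 12.2, 13.1 and 8.38 FPKM in control and 7.63, 11.0 and 8.08 FPKM in Setd5sh, lower in all 3 pairs but with overlapping groups, at a log2 fold change of -0.34 (SE 0.21). Rcor2 had one of 0.15 (SE 0.14). The SoxB1 factors, which maintain progenitors, had a median of -0.02 that changed sign with upper-quartile scaling, at 0.01, and in other settings. Sox1 stood at 27.4, 28.0 and 27.8 FPKM in control and 26.8, 26.7 and 20.7 FPKM in Setd5sh, and the log2 fold change of Sox3 was 0.22 (SE 0.19).

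**Figure D4:**
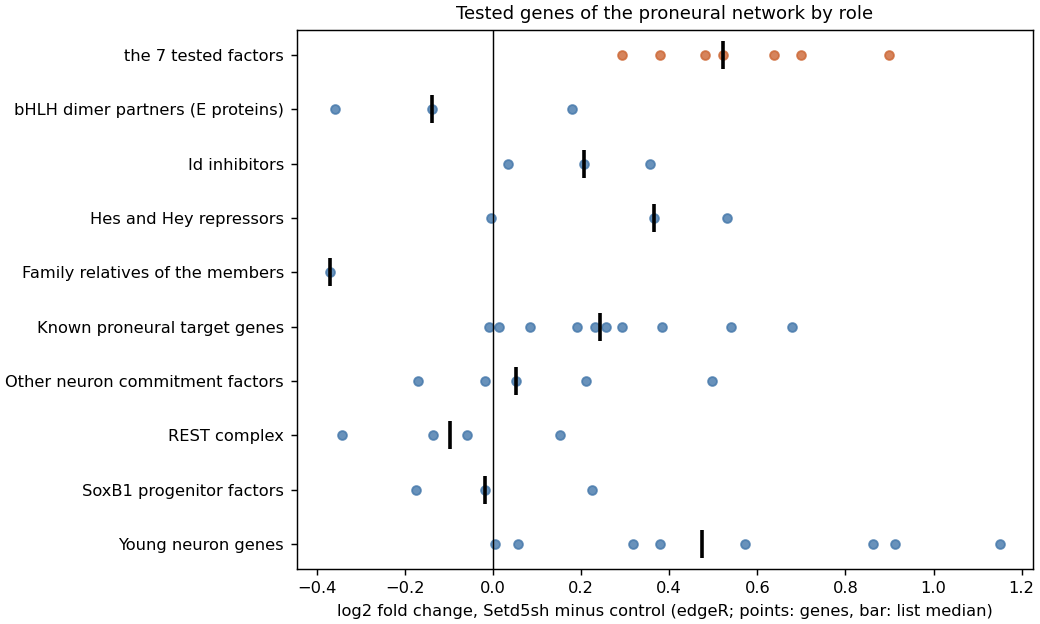
Log2 fold change, Setd5sh minus control (edgeR), of tested genes of the proneural network (points), by role, with the list median (black bar); the other proneural and neuronal bHLH genes are not drawn. All 7 listed factors, all 8 young neuron genes, the 3 Id inhibitors and 9 of the 10 known targets lie above 0, whereas the E proteins, REST complex and SoxB1 genes lie on both sides. Of the young neuron genes, Tubb3, Ina and Cntn2 were known to be higher when the list was drawn up.

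Genes of postmitotic motor neurons were mostly scarce: 4 of 7 were under 1 FPKM in every library. Mnx1, which holds motor neuron identity, stood at 10.7, 22.8 and 11.3 FPKM in control and 7.16, 17.1 and 5.05 FPKM in Setd5sh. In each group Mnx1 was highest in the library numbered 2, in which the later proneural factors were the lowest of the group. Its log2 fold change was -0.61 (SE 0.47). Isl1, which starts the motor neuron programme, stood at 2.18, 0.73 and 0.94 FPKM in control and 2.00, 0.96 and 2.75 FPKM in Setd5sh, with control 1 highest and control 2 lowest of the controls, as in Neurod4. The log2 fold change of Isl1 was 0.53 (SE 0.53).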

How the data were processed

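The authors deposited 1 table that gives, for each gene and library, the raw count of reads and the FPKM, beside the gene's exonic length; per the labels' protocols, the libraries were made from poly-T selected RNA with random hexamer primers. Of tools, the submitters' processing notes list HISAT2 with SAMtools, HTSeq and DESeq2, and mm10 as the build, without roles or versions. The deposited FPKM values equal the deposited counts scaled by exonic length and library total, to within 0.005. Symbols and positions came from GENCODE M21 (55140 of 55400 identifiers, 99.5%).

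Counts were tested with edgeR 4.0.16 (quasi-likelihood, TMM scaling, a mean of at least 1 FPKM over 6 libraries, Benjamini-Hochberg over 12199 genes, threshold 0.05, two-sided) in R 4.3.3; genes under the minimum were read from a fit with no filter. DESeq2 1.42.0, limma 3.58.1 on log2(FPKM + 1) and voom, other scalings and filters, the replicate block and fits without each library were alternatives; scripts were tested on simulated data. The genes, lists and tests were chosen with earlier results of these data known. All 10 genes are named, with Setd5, the progenitor markers, and of each role list up to 4 genes with an unadjusted p under 0.05, or else the 2 with the smallest p; Postn, Lum, Thy1, Col1a1, Col1a2, Foxa2, Meox1, Pou5f1, Mnx1, Isl1, Neurod2, Neurod6 and Cerkl were named after their values were seen. The result of 1 gene that this rule would name is not reported here.

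Groups and replicate numbers came from the titles. The labels do not say that replicates were separate cultures: p-values therefore reflect only how far these samples differ, which may be technical. No libraries of a group agreed within sampling noise (lowest chi-square per degree of freedom, 30.2). Control 1, which had the highest total count, differed most, at 207 against control 2 and 210 against control 3. The other comparisons within a group gave 30.2 to 63.1. Deviations from the group means correlated at 0.185, 0.69 and 0.127 for the same-numbered libraries in edgeR's log CPM. With log2(CPM + 0.5) the third was 0.0732. The values within pairs and the fits with the replicate block rest on these correlations, not on the labels. The main fit compared the groups without pairing, so its log2 fold changes, SEs and p-values are unpaired. Control 1 with Setd5sh 3, which share no number, correlated at 0.191, above the pairs numbered 1 and 3, so the pairing is at most weakly supported for both of those. The other 5 unmatched pairs were below 0. Each gene's deviations sum to 0 within a group. The value of 0.69 therefore forces the unmatched pairs with a library numbered 2 below 0 on balance, and the remaining ones above 0 on balance. Those signs are no separate evidence for pairing.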

Additional observations from a re-analysis of the deposited data

How the results depend on the processing

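The log2 fold changes of Neurog1, Neurog2, Insm1, Neurod1, Nhlh1 and Nhlh2 were above 0 in all 21 settings run, and that of Neurod4 in 20; it was -0.16 without Setd5sh replicate 3 and 0.91 without control replicate 1, the ends of its range without single libraries. Ebf2, Ebf3 and Myt1 were above 0 in the 3 settings that tested them. The number of all genes called, 0 in edgeR, was 73 with no filter, 2 in DESeq2 with the replicate block and 70 with the replicate block and the libraries numbered 1 left out, a fit added after seeing the data in which 1 of the 10 genes passed, Nhlh1 at a log2 fold change of 1.13. Of the 7 tested genes, the number higher with an unadjusted p under 0.05 ranged from 2 to 7 without single libraries, against 0.115% to 1.86% of all genes in those fits. With the replicate block in edgeR no gene passed, the adjusted p was 0.938 for all 7 tested genes, and the list median was 0.54. In the fit corrected for GC content and length with the block, added after seeing the data, the list median was 0.54 and 6 of the 7 were higher with an unadjusted p under 0.05, against 2.87% of all genes in that fit. Fits that leave out a library leave 1 group with 2 samples. The cause of these differences was not tested. For Neurog1 and Neurog2, counting error in the control libraries (4.40% to 5.33% and 4.71% to 5.81% of the count) was about as large as the SD between those libraries (5.99% and 5.85% of the mean); for Insm1 that SD was 12.6% against counting error of at most 3.39%.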
